A study of Mus musculus with 24 samples.

Results

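The genes described here are the 4 myogenic regulatory factors Myod1, Myf5, Myog and Myf6 and the paired box genes Pax7 and Pax3, taken by name from count and TPM (transcripts-per-million, a level per transcript length) tables of 56941 genes in 24 bulk RNA-seq libraries. Of these 6 genes, 5 were among the 13318 genes that passed the filter on low counts, and Pax3 was not. The study asked how daily light-driven contraction changes engineered muscle. All libraries came from the mouse myoblast line C2C12 of the genotype ChR2::tdTomato, which carries a channelrhodopsin that opens in blue light, fused to a red fluorescent protein. The myoblasts were differentiated for about 2 weeks with horse serum and IGF-1 as flat sheets on fibrin gels, and the study counted each of the 6 wells of a condition as a biological replicate. The 4 conditions of 6 libraries each were an unstimulated control that carried the same transgene and light for 30 min per day at 1 Hz, 4 Hz or 10 Hz. C2C12 is an immortal line grown without nerve, vessel or satellite cell niche, no line without the channel was among these samples, and there was no control for light without contraction.

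The myogenic regulatory factors are basic helix-loop-helix proteins that bind the E-box of muscle genes together with E proteins. Myf5 and Myod1 act first and commit a cell to the muscle lineage, Myog drives the exit from the cell cycle, fusion and the start of contractile gene expression, and Myf6 (MRF4) is known from late differentiation and mature fibres. Pax7 and Pax3 act upstream, Pax7 as the defining factor of adult satellite cells and Pax3 mainly in embryonic and limb progenitors.

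On GRCm39 all 6 genes are protein coding in the GENCODE M39 annotation. Myod1 lies at chr7:46025870-46028526 on the plus strand, Myog at chr1:134217707-134220287 on the plus strand and Pax3 at chr1:78077904-78173771 on the minus strand. Pax7 lies at chr4:139464373-139560839 on the minus strand. Myf5 (chr10:107318769-107321995) and Myf6 (chr10:107328712-107330656) are neighbours on the minus strand, 6716 bases apart. The 4 factor genes have 3 exons each in their canonical transcript and the Pax genes 9.

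The region before the start of Myog and that of Myf5 are shown because these genes moved apart in the data below. RefSeq promoters of GRCm38.p6 were matched for Myog, Myf5 and Pax7, 3 of the 6 genes. Capitals mark matches on either strand to the E-box CANNTG, its form CAGCTG, the MEF3 motif TCAGGTT, exact matches to the MEF2 consensus and the TATAAA box. The 250 bases before each start, at chr1:134289754-134290003 on the plus strand for Myog and at chr10:107486135-107486384 on the minus strand for Myf5, read as follows.
Myog: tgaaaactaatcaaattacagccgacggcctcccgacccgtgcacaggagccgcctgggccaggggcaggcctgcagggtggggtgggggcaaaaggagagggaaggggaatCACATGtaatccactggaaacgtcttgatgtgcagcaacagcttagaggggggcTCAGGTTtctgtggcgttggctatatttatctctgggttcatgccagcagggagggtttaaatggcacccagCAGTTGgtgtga
Myf5: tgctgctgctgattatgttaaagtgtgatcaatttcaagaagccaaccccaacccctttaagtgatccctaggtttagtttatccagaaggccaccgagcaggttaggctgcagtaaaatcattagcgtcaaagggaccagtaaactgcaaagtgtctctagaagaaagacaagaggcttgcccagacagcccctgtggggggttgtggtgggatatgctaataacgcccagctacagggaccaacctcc
The Myog window held 2 E-boxes, which began 138 and 12 bases before the start, and 1 MEF3 match between them that overlapped neither. Over 32851 windows of the same length, 66.2% held an E-box, with a median of 1, and 3.49% held TCAGGTT. No searched motif matched in the windows of Myf5 and Pax7. The CAGCTG form, the MEF2 motif and TATAAA, which matched in none of these 3 windows, were in 13%, 2.92% and 12.4% of all windows. These are matches of letters only. Near matches to the MEF2 consensus were not counted, so that 0 exact matches say nothing of a site for that factor.

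Total counts ranged from 4.09 M to 15.2 M per library. Muscle markers were high in all of them, with Acta1, skeletal actin, between 2391 and 7479 CPM (counts-per-million, scaled by TMM) and Des, desmin, between 1410 and 2490.0 CPM. Of 26 markers of other cell types 15 stayed under 1 CPM in every library and the endothelial Tie1 and mural Rgs5 were at 0 in all. Their summed level, scaled by total counts without TMM, was 151 to 184 CPM in the control, 159 to 198 at 1 Hz, 126 to 184 at 4 Hz and 131 to 168 at 10 Hz. The largest part was the immune marker Cd68, with means of 99.6, 91.4, 80.2 and 84.6 CPM in the control and at 1, 4 and 10 Hz. Pdgfrb, of mural cells and fibroblasts, averaged 9.61, 23.3, 31.1 and 12.3 CPM in the same order and on this scale. Tubb3 and Pdgfra reached 54.7 and 19.6 CPM in single libraries. A further measure moved with the conditions. Small RNAs without a poly(A) tail summed, on the same scale, to 99.4 to 170 CPM in the control, 15.6 to 70.8 at 1 Hz, 19.5 to 51.1 at 4 Hz and 38.5 to 275 at 10 Hz, so that the control did not overlap with 1 or 4 Hz. The labels state that low-input samples were made by ribodepletion and the others by poly(A) selection, without naming which. This difference in library composition and light at 1 or 4 Hz cannot be told apart here.

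Myog was the most abundant of the 6 transcripts and Pax3 was all but absent. Per length, the order Myog, Myod1, Myf5, Myf6, Pax7, Pax3 held in 24 of 24 libraries. Mean levels over all libraries were 425 ± 103 TPM for Myog, 55.6 ± 23.03 for Myod1 and 13.7 ± 4.31 for Myf5 (SD, n = 24). Those of Myf6 and Pax7 were 5.35 ± 2.70 and 0.744 ± 0.392 TPM. The ranges of neighbours in this order overlapped between libraries for Myod1 and Myf5, for Myf5 and Myf6 and for Pax7 and Pax3, and did not for Myog and Myod1 or for Myf6 and Pax7. Myog made up 82.1% to 89.3% of the summed TPM of the 4 factors in every library. That sum was 373 ± 90.4 TPM in the control, 505 ± 26.8 at 1 Hz, 592 ± 51.7 at 4 Hz and 530 ± 160.0 at 10 Hz (SD, n = 6).

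The factors differed from control in different directions, with the most calls at 4 Hz. At 4 Hz against control 4 of the 5 tested genes were called (adjusted p under 0.05 and absolute log2 fold change over 0.5, edgeR), where 20.1% of all genes tested were called. Myod1, Myog and Pax7 rose and Myf5 fell. At 1 Hz 2 of 5 were called, Myod1 and Pax7, both higher, against 18.3% of all genes. At 10 Hz only Myog was called, 1 of 5 against 1.86%. Libraries of the light condition and the control did not overlap for Myod1 at 1 Hz (13.1% of all genes did not overlap), for Myod1 and Myog at 4 Hz (16.6%), and for no tested member at 10 Hz (2.58%). With the small RNA share as a covariate no member was called at 1 or 4 Hz, where 1 and 221 of all genes were called, and Myog at 10 Hz was (log2 fold change 0.51, adjusted p = 0.0277). The p-values measure the spread between wells of this one experiment.

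**Figure D1:**
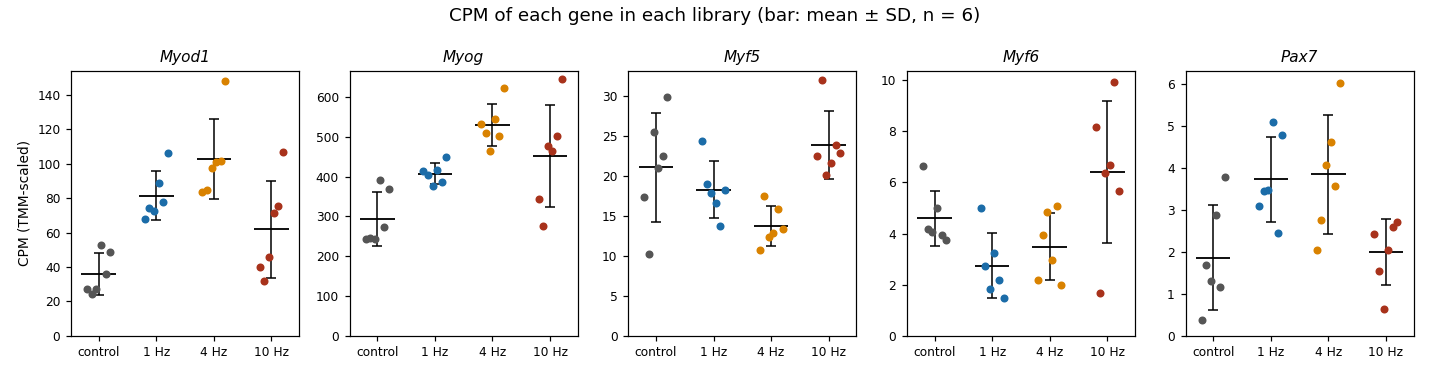
CPM (linear axis from 0) of the 5 tested genes in each library by condition, with 6 points per condition, a line at the mean and bars of ±1 SD. Myod1 and Myog at 4 Hz lie above every control library, Myf5 at 4 Hz lies in the lower part of the control range, and the 10 Hz libraries of Myod1 spread from 31.7 to 107 CPM.

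Between the light conditions the members also differed. At 10 Hz against 4 Hz 4 of 5 were called, against 11.0% of all genes, with Myod1 and Pax7 lower and Myf5 and Myf6 higher. The 10 Hz and 4 Hz libraries did not overlap for Myf5, 1 of 5, against 6.20%. At 10 Hz against 1 Hz 2 of 5 were called, against 17.9%, with Myf6 higher and Pax7 lower, and no member was without overlap (13.2% of all genes). Between 4 Hz and 1 Hz edgeR called 0 of 5, against 3.00%, as did DESeq2, while Myog and Myf5 had an unadjusted p of 0.0156 and 0.0338. Of all 13318 genes tested 3585 had an unadjusted p under 0.05 there. The Myog libraries at 4 Hz nevertheless all lay above those at 1 Hz, 1 of 5 against 5.70%. No member was called in these 3 comparisons once the small RNA covariate was added. Over all genes that fit called 0 at 10 Hz against 4 Hz, 178 at 10 Hz against 1 Hz and 411 at 4 Hz against 1 Hz. The absence of calls is thus not particular to the members at 10 Hz against 4 Hz. The comparisons share libraries, so that their counts are not independent of each other.

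**Figure D2:**
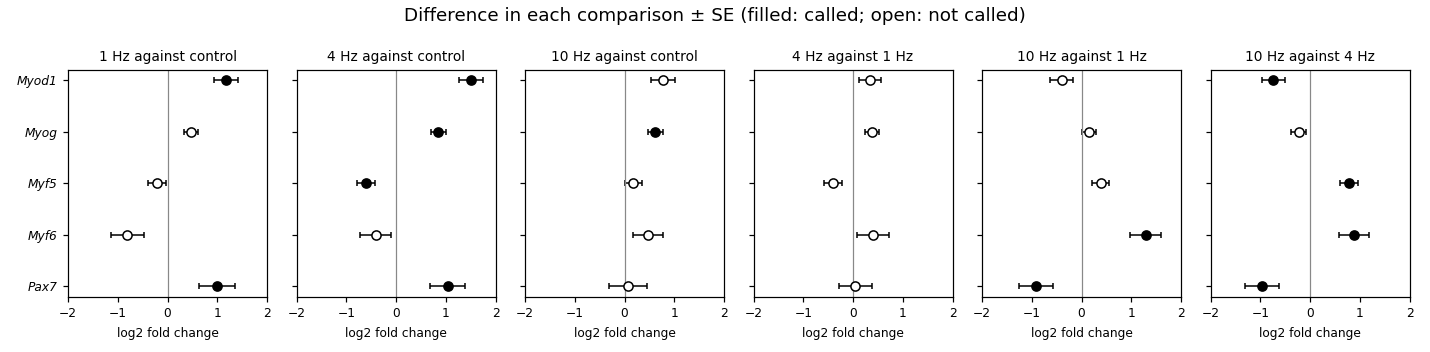
Log2 fold change (x axis) of the 5 tested genes in the 6 comparisons, with bars of ±1 SE from the fit over 24 libraries. Filled points were called and open points were not, and no point is filled for 4 Hz against 1 Hz.

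Myod1, the determination factor, rose at 1 and 4 Hz. In the control it ranged from 24.5 over a median of 31.6 to 53.0 CPM, at 1 Hz from 68.0 over 75.9 to 106, at 4 Hz from 83.5 over 99.4 to 148 and at 10 Hz from 31.7 over 58.5 to 107. Every library at 1 and 4 Hz lay above every control, while the 10 Hz libraries were spread over the control and 1 Hz ranges, with 3 of 6 above all controls. In bulk RNA a change in the number of cells that make a transcript and a change in the transcript per cell cannot be told apart, here and for each gene below. The log2 fold change was 1.17 (SE 0.24, adjusted p = 0.000456) at 1 Hz and 1.51 (SE 0.23, adjusted p = 2.15e-05) at 4 Hz. At 10 Hz it was 0.77 (SE 0.24, adjusted p = 0.0548). That value passed the threshold with DESeq2 (0.78, adjusted p = 0.0462) and without control replicate 4 or 6, 4 Hz replicate 6 or 10 Hz replicate 1, 2 or 3 (0.78 to 0.93, adjusted p 0.0192 to 0.0427). With the small RNA covariate the values at 1 and 4 Hz were 0.37 and 0.73 (adjusted p = 0.769 and 0.234).

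Against 4 Hz, Myod1 at 10 Hz fell by 0.74 on the log2 scale (SE 0.22, adjusted p = 0.0191), and 5 of 6 libraries at 10 Hz lay below all of those at 4 Hz. The call was lost without 4 Hz replicate 6 or 10 Hz replicate 1, 2 or 3 (adjusted p 0.0503 to 0.0584). Against 1 Hz it was -0.40 (SE 0.23, adjusted p = 0.167), and without 10 Hz replicate 6, the highest library of that condition, -0.63 (adjusted p = 0.0206). The difference between 4 and 1 Hz was 0.34 (SE 0.22, adjusted p = 0.349, 95% interval -0.12 to 0.79).

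Myf5, the other determination factor, moved the opposite way at 4 Hz. It ranged from 10.2 over a median of 21.8 to 29.9 CPM in the control, from 13.7 over 18.1 to 24.5 at 1 Hz, from 10.7 over 13.1 to 17.5 at 4 Hz and from 20.1 over 22.7 to 32.1 at 10 Hz. The 4 Hz libraries lay in the lower part of the wide control range, and all 10 Hz libraries lay above all 4 Hz libraries. At 4 Hz against control it fell by 0.61 on the log2 scale (SE 0.18, adjusted p = 0.00879). Without control replicate 6, the highest control, the value was -0.48 (adjusted p = 0.0349), under the fold threshold. At 10 Hz against 4 Hz it rose by 0.78 (SE 0.18, adjusted p = 0.00253). The values at 1 and 10 Hz against control, -0.21 (SE 0.18, adjusted p = 0.378) and 0.18 (SE 0.18, adjusted p = 0.615), did not pass. Those of 4 Hz and 10 Hz against 1 Hz were -0.40 (adjusted p = 0.145) and 0.39 (adjusted p = 0.0840). With the small RNA covariate Myf5 stood at -0.14 for 4 Hz against control (edgeR, adjusted p = 0.841). For 10 Hz against 4 Hz it stood at 0.38 (edgeR, adjusted p = 0.816).

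Myog, the differentiation factor, rose at 4 and 10 Hz. It ranged from 242 over a median of 259 to 390.4 CPM in the control and from 375 over 409 to 450 at 1 Hz. At 4 Hz it ranged from 464 over 522 to 622, and at 10 Hz from 275 over 472 to 645. The control and 1 Hz libraries overlapped by the highest control, the 4 Hz libraries stood above both conditions, and the 10 Hz libraries reached from within the control range to the highest Myog level of all. At 4 Hz Myog rose by 0.85 on the log2 scale (SE 0.15, adjusted p = 7.73e-05) and at 10 Hz by 0.62 (SE 0.15, adjusted p = 0.0142). Without 10 Hz replicate 6 the latter was 0.49 (adjusted p = 0.0478), under the fold threshold. With only the 12 libraries compared its adjusted p was 0.0737, and limma on log2(TPM + 1) gave 0.49 (adjusted p = 0.0675). At 1 Hz the value was 0.47 (SE 0.15, adjusted p = 0.0144), also under the fold threshold, and without control replicate 4 or 6 it was 0.57 or 0.55 (adjusted p = 0.00419 and 0.00704). With the small RNA covariate Myog stood at 0.0053 at 1 Hz and 0.38 at 4 Hz (edgeR, adjusted p = 0.996 and 0.366). Between light conditions the log2 fold change was 0.38 (SE 0.15, adjusted p = 0.0887) for 4 Hz against 1 Hz, 0.15 (SE 0.15, adjusted p = 0.445) for 10 Hz against 1 Hz and -0.23 (SE 0.15, adjusted p = 0.267) for 10 Hz against 4 Hz.

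Myf6, the late factor, was low and varied widely, with 11 to 101 counts per library. It ranged from 3.77 over a median of 4.13 to 6.62 CPM in the control, from 1.49 over 2.44 to 5.01 at 1 Hz, from 1.97 over 3.45 to 5.06 at 4 Hz and from 1.69 over 6.53 to 9.94 at 10 Hz. All conditions overlapped, although 5 of 6 libraries at 10 Hz lay above every 1 Hz and every 4 Hz library. At 10 Hz Myf6 was higher than at 1 Hz by 1.29 (SE 0.32, adjusted p = 0.00258) and than at 4 Hz by 0.89 (SE 0.30, adjusted p = 0.0342). The latter call was lost without 4 Hz replicate 1, 4 or 6 or 10 Hz replicate 1, 3 or 5 (adjusted p 0.0523 to 0.0875), with only the 12 libraries compared (adjusted p = 0.0639) and with limma on log2(TPM + 1) (adjusted p = 0.0758). Against control the values were -0.81 at 1 Hz (SE 0.33, adjusted p = 0.0575), -0.41 at 4 Hz (SE 0.32, adjusted p = 0.310) and 0.48 at 10 Hz (SE 0.30, adjusted p = 0.404). The 1 Hz value passed with DESeq2 (-0.80, adjusted p = 0.0407), alone or with apeglm, and with total count scaling (-0.89, adjusted p = 0.0401). With only the 12 libraries compared (-0.81, adjusted p = 0.0305) and with the replicate number as a block it also passed. The same held without 1 Hz replicate 1 (-1.04, adjusted p = 0.0167) or 10 Hz replicate 2 (-0.81, adjusted p = 0.0262). It did not pass with DESeq2 size factors, no filter, either limma fit or the small RNA covariate (-0.60, adjusted p = 0.768). The value for 4 Hz against 1 Hz was 0.40 (SE 0.33, adjusted p = 0.466).

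Pax7, the satellite cell factor, was close to the lower limit of what these libraries measured, with 2 to 61 counts. It ranged from 0.378 over a median of 1.49 to 3.77 CPM in the control and from 2.44 over 3.46 to 5.08 at 1 Hz. At 4 Hz the range was 2.03 over 3.81 to 6.02, and at 10 Hz 0.626 over 2.23 to 2.71. The 1 and 4 Hz libraries lay in and above the upper part of the control range, and the 10 Hz libraries within the control range. In the lowest control library, with 2 counts, the exact 95% Poisson interval on the unscaled level was 0.0473 to 1.41 CPM, which covers counting error only. Pax7 rose by 0.99 on the log2 scale at 1 Hz (SE 0.36, adjusted p = 0.0349) and by 1.04 at 4 Hz (SE 0.36, adjusted p = 0.0230). The call at 1 Hz was lost without control replicate 1, 2, 3 or 5 or 1 Hz replicate 4 or 6 (adjusted p 0.0607 to 0.0821), and the call at 4 Hz without control replicate 1 or 3 or 4 Hz replicate 6 (adjusted p 0.0536 to 0.0637). With the small RNA covariate Pax7 stood at 0.72 at 1 Hz and 0.78 at 4 Hz (edgeR, adjusted p = 0.751 and 0.526).

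The difference of Pax7 between 10 Hz and control was 0.07 (SE 0.38, 95% interval -0.71 to 0.85, adjusted p = 0.944), and between 4 and 1 Hz it was 0.05 (SE 0.32, adjusted p = 0.946). Its level at 10 Hz fell below 1 Hz (-0.92, SE 0.35, adjusted p = 0.0397) and below 4 Hz (-0.96, SE 0.34, adjusted p = 0.0415). The call against 1 Hz was lost without 1 Hz replicate 3, 4 or 6 or 10 Hz replicate 2, 3 or 4 (adjusted p 0.0515 to 0.0963). That against 4 Hz was lost without 4 Hz replicate 3, 4 or 6 or 10 Hz replicate 1, 2, 3 or 4 (adjusted p 0.0512 to 0.115), and with total count scaling (-0.90, adjusted p = 0.0530). Pax3 had 1 count in control replicate 4 and 1 in 1 Hz replicate 1 and 0 counts in the other 22 libraries. A count of 0 allows up to 3 counts by the rule used here, which is 0.197 CPM in the deepest and 0.734 CPM in the shallowest library, so Pax3 was not detectable at this depth in those libraries.

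**Figure D3:**
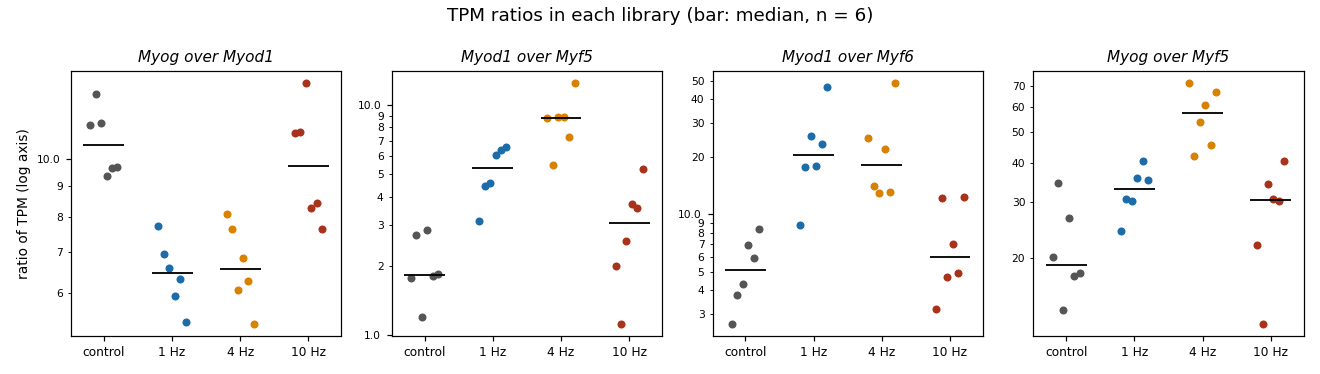
Ratio of the TPM of 2 genes in each library (log y axis), by condition, for 4 pairs of genes, with 6 points per condition and a line at the median. Myog over Myod1 is lower at 1 and 4 Hz than in the control, and Myod1 over Myf5 and Myod1 over Myf6 are higher.

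The ratio of 2 factors within a library compares them without a scaling between libraries. Per length, Myog exceeded Myod1 by 9.37 to 12.8 times in the control (mean 10.7), by 5.37 to 7.75 times at 1 Hz (6.49), by 5.34 to 8.11 times at 4 Hz (6.72) and by 7.67 to 13.3 times at 10 Hz (9.98). No library at 1 or 4 Hz reached the control range, and 10 Hz overlapped with all 3 other conditions. The log2 ratio of Myog to Myod1 was lower than control by -0.72 at 1 Hz and -0.68 at 4 Hz, both with an adjusted p of 0.00999 (2-sided exact permutation test, adjusted over 60 ratio comparisons, n = 6 per condition). At 10 Hz the difference was -0.12 (exact permutation, adjusted p = 0.553). At 10 Hz the ratio was higher than at 1 Hz by 0.60 and than at 4 Hz by 0.56 (exact permutation, adjusted p = 0.0130 for both). The smallest p that 6 against 6 libraries allow is 0.00216. In a least squares fit with the log2 small RNA level as a covariate, added after seeing the data and given without a test, the differences from control were -0.43 (SE 0.20) at 1 Hz and -0.39 (SE 0.20) at 4 Hz.

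Among the determination factors, Myod1 exceeded Myf5 by a mean of 2.03 times in the control, 5.19 at 1 Hz, 8.64 at 4 Hz and 3.04 at 10 Hz. The ranges were 1.196 to 2.84, 3.14 to 6.59, 5.47 to 12.5 and 1.11 to 5.28 times. Libraries at 1 and 4 Hz all stood above the control, and 10 Hz reached from below the control to the 1 Hz range. On the log2 scale the ratio of Myod1 to Myf5 was higher than control by 1.37 at 1 Hz and 2.11 at 4 Hz (exact permutation, adjusted p = 0.00999 for both) and by 0.48 at 10 Hz (adjusted p = 0.347, exact permutation). Between 4 and 1 Hz it rose by 0.74 (exact permutation, adjusted p = 0.0325), a call lost without 1 Hz replicate 2 or 3 or 4 Hz replicate 1, 3, 4 or 6 (adjusted p 0.0519 to 0.0557 by exact permutation). With the same covariate the differences of Myod1 to Myf5 from control were 0.098 (SE 0.36) at 1 Hz and 0.85 (SE 0.36) at 4 Hz. Myog over Myf5 stood at a mean of 21.7 in the control, 32.8 at 1 Hz, 56.8 at 4 Hz and 28.3 at 10 Hz, and its 4 Hz libraries lay above those of each other condition.

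Against the late factor, Myod1 exceeded Myf6 by a mean of 5.31 times in the control, 23.3 at 1 Hz, 22.7 at 4 Hz and 7.36 at 10 Hz. The log2 ratio was higher than control by 2.06 at 1 Hz and 2.02 at 4 Hz, without overlap (exact permutation, adjusted p = 0.00999 for both), and by 0.39 at 10 Hz (exact permutation, adjusted p = 0.492). Myog over Myf6 had means of 55.0, 144, 147 and 70.9 in the control and at 1, 4 and 10 Hz, and the log2 differences from control were 1.34 at 1 Hz and 1.34 at 4 Hz (exact permutation, adjusted p = 0.0130 for both). With the covariate the Myod1 to Myf6 differences were 1.27 (SE 0.67) at 1 Hz and 1.24 (SE 0.67) at 4 Hz. These ratios rest on the low counts of Myf6. The ratio of Myod1 to Pax7 did not pass in any of the 6 comparisons, with log2 differences from control of -0.06, 0.21 and 0.48 at 1, 4 and 10 Hz (exact permutation, adjusted p = 0.974, 0.772 and 0.522). The effective length that the Pax7 TPM imply varied 1.74 times between libraries, with the lowest in control replicate 6, against 1.14 to 1.16 times for the other 4 genes, so Pax7 ratios of TPM carry a length term that CPM do not.

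In all, 29 of the 60 comparisons of 10 ratios passed, 7 each at 1 and 4 Hz against control, 3 between 4 and 1 Hz and 6 each for 10 Hz against 1 and 4 Hz. At 10 Hz against control 0 of 10 passed, and the smallest unadjusted p was 0.232 (exact permutation). With the small RNA covariate the difference was smaller in size for all 7 at 1 Hz, all 7 at 4 Hz, 5 of 6 and 6 of 6 at 10 Hz against 1 and 4 Hz and 0 of 3 between 4 and 1 Hz, and that of Myf5 to Myog at 1 Hz against control changed sign (0.33, SE 0.31). Several calls were close to the threshold, and a test of 6 against 5 libraries has fewer arrangements. Myf5 to Myog at 1 Hz against control, at -0.79 to -0.53 without single libraries, passed only when control replicate 2 or 4 or 1 Hz replicate 1 was the library left out, and Pax7 to Myf5 there only without control replicate 2, 4 or 6 or 1 Hz replicate 1. Pax7 to Myf6 was lost at 1 Hz without 1 Hz replicate 3, 4, 5 or 6 and passed at 4 Hz only without control replicate 6. Myf6 to Myf5 between 4 and 1 Hz passed only without 1 Hz replicate 1 or 4 or 4 Hz replicate 6, and Myf6 to Myog between 10 and 1 Hz only without 1 Hz replicate 1 or 10 Hz replicate 2 or 6. The adjusted p of the lost calls ran from 0.0510 to 0.106 (exact permutation).

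**Figure D4:**
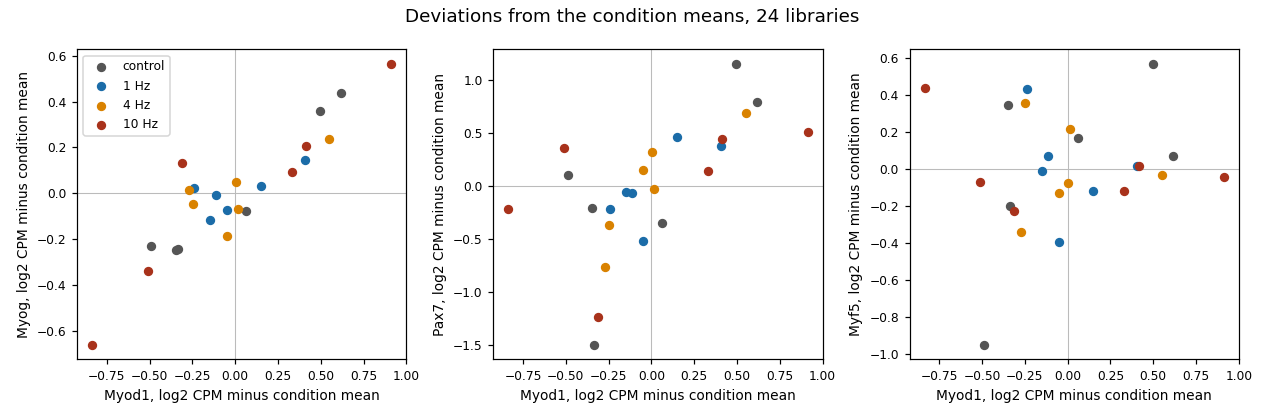
Log2 CPM of Myog, Pax7 and Myf5 (y axes) against that of Myod1 (x axes) in 24 libraries, each as the difference from the mean of its condition. Myod1 and Myog fall along a line (r = 0.90), Myod1 and Pax7 more loosely (r = 0.62), and Myod1 and Myf5 show no line (r = 0.10).

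Within conditions, libraries high in Myod1 were also high in Myog. After subtracting each condition's mean, Pearson's r of log2 CPM was 0.90 and Spearman's rho 0.83 over 24 libraries, each with a permutation p of 1e-05, the smallest that the 100000 permutations of libraries within conditions can give, and 0.0001 after adjustment over 10 pairs. Without the 2 libraries farthest from the median of Myod1, r was 0.84. Of the 13318 genes tested none had a higher within-condition r with Myod1 than Myog had, nor with Myog than Myod1 had, which is a description across genes. In single conditions r was 0.97 in the control, 0.74 at 1 Hz, 0.70 at 4 Hz and 0.92 at 10 Hz (exact permutation, adjusted over 40 values, p = 0.139, 0.509, 0.509 and 0.139). Without the 2 libraries farthest from the median these values were 0.92, -0.53, 0.07 and 0.73, so at 1 and 4 Hz the relation rested on those libraries. In the same order Spearman's rho was 0.83, 0.60, 0.31 and 0.94 (exact permutation, adjusted p = 0.583, 0.921, 0.921 and 0.583).

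Myod1 and Pax7 also rose and fell together within conditions, with r = 0.62 (permutation, adjusted p = 0.0224), rho = 0.71 (permutation, adjusted p = 0.00365) and r = 0.66 without the 2 farthest libraries. The call was lost without control replicate 4 (r = 0.58), control replicate 6 (0.58) or 4 Hz replicate 6 (0.59), with adjusted permutation p from 0.0501 to 0.0649. In single conditions r was 0.71, 0.72, 0.88 and 0.50 in the control and at 1, 4 and 10 Hz (exact permutation, adjusted p = 0.509, 0.509, 0.194 and 0.683). For Myog and Pax7, r was 0.46 (permutation, adjusted p = 0.227) and rho 0.57 (permutation, adjusted p = 0.0316), and without 10 Hz replicate 3 r was 0.59 (permutation, adjusted p = 0.00377). The other 7 pairs, all with Myf5 or Myf6, had r between -0.06 and 0.23 and adjusted permutation p of 0.862 or more. Over 24 libraries with condition differences included, r was 0.91 for Myod1 and Myog, 0.77 for Myod1 and Pax7, -0.34 for Myod1 and Myf5 and -0.26 for Myod1 and Myf6, as a description.

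**Figure D5:**
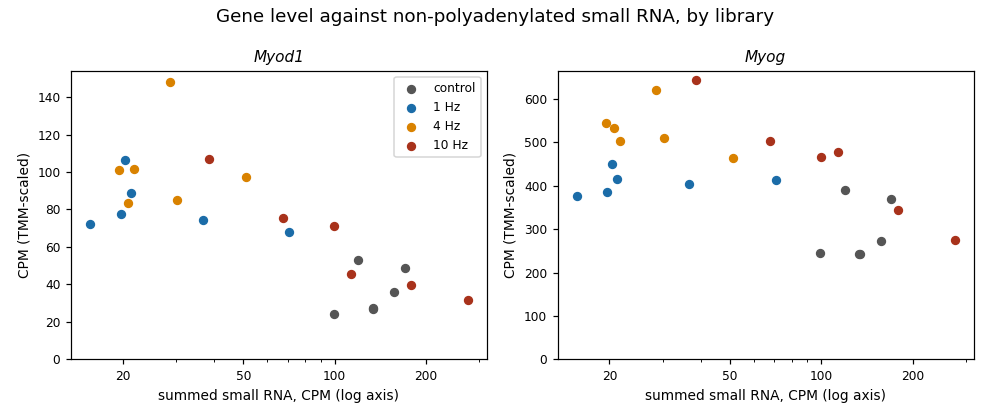
CPM of Myod1 and Myog (y axes, linear) against the summed CPM, without TMM, of small RNAs without a poly(A) tail (x axes, log) in 24 libraries, coloured by condition. At 10 Hz both genes fall as the small RNAs rise from 38.5 to 275 CPM, and the control libraries, at 99.4 to 170 CPM, do not overlap on the x axis with those at 1 and 4 Hz.

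The small RNA share moved with Myod1 and Myog inside the 10 Hz condition. Over its 6 libraries, r of the log2 levels was -0.97 for Myod1 (rho -1.0) and -0.97 for Myog (rho -0.94), with exact permutation p of 0.00139 and 0.00417 (0.0278 and 0.0417 adjusted over 20 values) for r and 0.00278 and 0.0167 (0.0556 and 0.167) for rho. Without the 2 farthest libraries r was -0.89 and -0.91. In the other conditions neither gene's r passed (exact permutation, adjusted p from 0.725 to 0.911), and the signs were mixed. For Myod1 r was 0.46 in the control, -0.48 at 1 Hz and 0.072 at 4 Hz, and for Myog it was 0.31, 0.23 and -0.45. Pooled within conditions r was -0.52 for both genes (permutation, adjusted p = 0.0409), with rho of -0.32 and -0.31 (permutation, adjusted p = 0.277). For Myf5 r was 0.44 (permutation, adjusted p = 0.0359) and rho 0.43 (permutation, adjusted p = 0.202). After removal of a slope on the small RNA share common to all conditions, Myod1 and Myog had r = 0.86 (permutation, adjusted p = 0.0001). Myod1 and Pax7 had r = 0.66 (permutation, adjusted p = 0.0160). The relation differed between conditions, so a common slope need not remove it at 10 Hz. Whether the genes co-varied apart from library composition is therefore not decided by these values. The part of library composition in the spread at 10 Hz was not tested beyond these values.

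Genes that the factors are known to activate were counted next. Of 40 listed targets 39 were tested, and 27 were higher and 0 lower at 1 Hz, 28 and 0 at 4 Hz and 6 and 0 at 10 Hz. These were 69.2%, 71.8% and 15.4% of the targets tested, beside 18.3%, 20.1% and 1.86% of all genes. Over all genes tested 1244 were higher and 1197 lower at 1 Hz, 1396 and 1280 at 4 Hz and 165 and 83 at 10 Hz. The median log2 fold change of the targets was 0.60, 0.83 and 0.30, beside a median of all genes of -0.01 in each comparison. Of all calls, 51.0% at 1 Hz and 52.2% at 4 Hz were higher, and with total count scaling 37.1% and 35.7%. With limma on log2(TPM + 1) the share at 4 Hz was 24.8% and the median of all genes -0.16. Neither scaling changed the direction of a member against control, where limma left out Pax7. Mybph, a myosin-binding protein, rose from 528 ± 88.4 CPM in the control to 1264 ± 160 at 1 Hz and 1349 ± 240 at 4 Hz (SD, n = 6), and Myh3, the embryonic myosin heavy chain, from 357 ± 115 to 838 ± 190 and 853 ± 125 CPM. Myh8, the perinatal myosin, rose by 1.31 on the log2 scale at 1 Hz, and Tnni2, fast troponin I, by 1.23 at 4 Hz. Cav3, the caveolin of muscle, rose by 0.98 at 1 Hz and 1.29 at 4 Hz. At 10 Hz Myh3 (0.82), Mybph (0.70), Cav3 (0.69) and Mymx, a membrane fusion protein (0.69), rose. Without 10 Hz replicate 4 or 6 the count at 10 Hz was 3 or 2. With the small RNA covariate 0, 10 and 5 of the 39 targets were called at 1, 4 and 10 Hz. Over all 13318 genes tested that fit called 1, 221 and 204, or 0.00751%, 1.66% and 1.53%.

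Of 37 listed partners and modulators of the factors 34 were tested, with 5 higher and 4 lower at 1 Hz, 6 and 2 at 4 Hz and 1 and 1 at 10 Hz, and medians of 0.20, 0.16 and 0.11. The calls were 26.5% of those tested at 1 Hz and 23.5% at 4 Hz, near the shares of all genes (18.3% and 20.1%). At 10 Hz the calls, 1 higher and 1 lower, were 5.88%, beside 1.86% of all genes. Mef2c, a MADS-box partner of the factors, rose from 79.6 ± 9.80 CPM to 141 ± 23.9 at 1 Hz and 149 ± 28.9 at 4 Hz (SD, n = 6). Snai1, a zinc finger repressor, rose by 0.67, 1.34 and 0.69 at 1, 4 and 10 Hz. Eya1, a cofactor of sine oculis homeobox proteins, rose by 0.67 at 1 Hz and the homeobox factor Six4 fell by 1.12. At 4 Hz Hes6, a basic helix-loop-helix factor of differentiation, rose by 0.58, and Sirt1, a deacetylase, fell by 0.67. The 2 calls at 10 Hz became 1 without control replicate 1 or 10 Hz replicate 1 or 3, and 0 without control replicate 2, 3 or 5 or 10 Hz replicate 4, 5 or 6. The small RNA covariate left 0 partners called in each of these comparisons, beside 1, 221 and 204 of all genes at 1, 4 and 10 Hz.

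Of 30 listed progenitor markers 25 were tested, with 9 higher and 1 lower at 1 Hz, 4 and 1 at 4 Hz and 1 and 1 at 10 Hz, and medians of 0.39, 0.26 and 0.02. The calls were 40% of those tested at 1 Hz and 20% at 4 Hz, beside 18.3% and 20.1% of all genes, so that the share at 4 Hz was at the background. Cxcr4, a chemokine receptor of migrating progenitors, rose from 8.91 ± 0.978 CPM to 27.1 ± 8.54 at 1 Hz, 29.4 ± 4.70 at 4 Hz and 15.7 ± 4.68 at 10 Hz (SD, n = 6). Egfr, the receptor of epidermal growth factor, rose by 1.26 and 1.27 and the adhesion molecule Ncam1 by 0.87 and 0.82 at 1 and 4 Hz, the Notch ligand Jag1 by 0.80 at 1 Hz, and Sdc3, a syndecan, fell by 0.55 at 4 Hz and by 0.62 at 10 Hz. Several of these genes are also made by fibres and other cells. Without 10 Hz replicate 6 the count at 10 Hz was 1. The small RNA covariate gave 0, 2 and 3 at 1, 4 and 10 Hz, beside 1, 221 and 204 of all genes.

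All 25 cell cycle markers were tested, with 0 higher and 3 lower at 1 Hz, 3 and 3 at 4 Hz and 0 called at 10 Hz by edgeR or DESeq2, where 3 had an unadjusted p under 0.05. The calls were 12% of the list at 1 Hz and 24% at 4 Hz, near the shares of all genes (18.3% and 20.1%). At 10 Hz 1.86% of all genes were called, and 2750 of all 13318 had an unadjusted p under 0.05 by edgeR. The medians were -0.13, -0.09 and -0.03. Ccne1, cyclin E1, fell by 0.58 at 1 Hz, the replicative helicase subunit Mcm3 by 0.56 at 1 Hz and 0.64 at 4 Hz, and Mcm4 by 0.68 at 4 Hz. The 3 called higher at 4 Hz, all under a mean of 10 CPM and named after their values were seen, were the proliferation marker Mki67 (1.28, from 0.996 to 2.33 CPM), Ccna2, cyclin A2 (1.25), and Top2a, a topoisomerase (0.69). Mcm5, of the same helicase and also under 10 CPM, fell by 1.01 at 4 Hz. The count at 1 Hz was 5 without control replicate 4 or 4 Hz replicate 5 and 7 with total count scaling. That at 4 Hz was 3 without 4 Hz replicate 3 or 6. Both counts were 0 with the small RNA covariate, beside 1 and 221 of all genes.

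Between light conditions 10 of 39 targets were lower at 10 Hz than at 1 Hz and 0 higher (median -0.31), and 17 were lower and 0 higher than at 4 Hz (median -0.44). These were 25.6% and 43.6% of the targets, beside 17.9% and 11.0% of all genes called in either direction. In both comparisons 0 targets were called with the small RNA covariate, an alternative added to these lists after seeing the data. Over all genes 178 were called against 1 Hz and 0 against 4 Hz with that covariate. For the targets edgeR called 0 of 39 between 4 and 1 Hz, beside 3.00% of all genes. There 12 of the 39 targets and 3585 of all 13318 genes had an unadjusted p under 0.05. Progenitor markers at 10 Hz against 1 Hz were 2 higher and 13 lower, with a median of -0.52, where over all genes 1259 were higher and 1131 lower. These calls were 60.0% of the 25 progenitor markers tested, beside 17.9% of all genes, and 2 were called with the small RNA covariate.

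The genes whose log2 CPM over the 24 libraries was most like that of each factor, among those with a mean of at least 10 CPM (9007 for Myod1, Myog and Myf5, 9008 for Myf6 and Pax7), are given as a description, since the points share their conditions and library composition. For Myod1 they included Ank1 (r = 0.96), an ankyrin, and Kcnk13 (0.95), a potassium channel. For Myog they were Ankrd10 (0.93), Svbp (0.93) and Myod1 itself (0.91). Those of Myf5 were Srsf2 (0.85), a splicing factor, H3f3b (0.83), which encodes histone H3.3, and Ammecr1l (0.83). Myf6 had no gene above 0.73, with Zfp830 (0.73), Smug1 (0.72) and Eapp (0.72), and its values within conditions fell to 0.51, 0.60 and 0.50. For Pax7 they were Fndc1 (0.86), Pdgfrb (0.86) and Tdp1 (0.84). Pdgfrb, a receptor of mural cells and fibroblasts that stood on the list of markers of other cell types, averaged 9.31 CPM in the control, 23.9 at 1 Hz, 32.4 at 4 Hz and 12.2 at 10 Hz. Among the 26 listed markers 5 were tested, 1 of them higher at 1 Hz and 1 higher and 1 lower at 4 Hz. These calls were 20.0% and 40.0% of those tested, beside 18.3% and 20.1% of all genes. All libraries came from the C2C12 line, and which of its cells made Pax7 or Pdgfrb was not tested.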

How the data were processed

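RNA was sequenced as 50-base pairs and quantified by the authors with STAR and Salmon in the nf-core/rnaseq pipeline on GRCm39, which gave 2 deposited tables per gene: estimated counts, not normalized (6.62% to 10.6% of all values in a library, those at 0 included, are not whole), and TPM. The study's methods also name BWA for mapping and bedtools for quality metrics. The labels list BWA 0.7.12-r1039 and bedtools 2.25.0, and the builds mm10 and hg19 with no stated role. The estimated counts were rounded to whole numbers here. Groups came from the sample titles, and no 2 replicates of a condition agreed within sampling noise.

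edgeR 4.0.16 (R 4.3.3) with TMM scaling, its filter on low counts by condition and the quasi-likelihood test was fitted once to 24 libraries, with 6 contrasts and Benjamini-Hochberg adjustment over 13318 genes. The filter kept 5 members. CPM are TMM-scaled, except the summed CPM of small RNAs and of markers of other cell types, which are per total counts. Ratios were tested on log2 TPM by exact permutation of 6 against 6 libraries, and co-variation on log2 CPM (prior count 2) minus the condition mean by 100000 permutations within conditions. DESeq2 1.42.0, apeglm 1.24.0, limma 3.58.1 (genes with a mean of at least 1 TPM), other scalings, filters, pseudocounts, a replicate block, a small RNA covariate (log2 of the summed CPM of 33 symbols found) and leaving out each library were the alternatives. The small RNA covariate for ratios and for lists between light conditions was added after seeing the data. In data simulated for 1 Hz against control, with 200 of 13318 genes changed by 1 on the log2 scale, edgeR recovered 81.5%, and 2.40% of its calls were false. The simulation held no difference in library composition and changed fewer genes than the 18.3% called at 1 Hz. Its shares therefore do not carry over to these data.

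The members and the gene lists were chosen with earlier results of these data known. No list holds a member. All members are named. Of the lists, up to 4 called genes with the largest change and a mean of at least 10 CPM are named at 1, 4 and 10 Hz against control, and for likeness the 3 genes with the highest r over 24 libraries, without predicted genes, of which 1 is not reported here. Depth was 4.19 M to 7.65 M counts in the control, 4.09 M to 15.2 M at 1 Hz, 7.55 M to 11.5 M at 4 Hz and 5.41 M to 12.1 M at 10 Hz. Intervals and limits for a count of 0 cover counting error only. Coordinates of genes are from GENCODE M39, which matched 6 of 6 identifiers, and those of promoters from RefSeq on GRCm38.p6, with no conversion between them.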

Additional observations from a re-analysis of the deposited data

Results flagged for a closer look

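In 13 of 60 groups of 6 libraries 1 library stood apart from the others, by a gap to its neighbour, as a share of the group's range, past Dixon's critical value. Chance alone flags about 1 in 20 groups of normally distributed values. Whether these untransformed CPM and TPM ratios are so distributed was not tested, so that rate need not hold for them. Ratios that share a gene are not independent. The highest Myod1 library at 4 Hz had 148 CPM, and the highest Myf5 library at 10 Hz 32.1 CPM. Most of the others are TPM ratios to Pax7 or Myf6, whose counts are low. The highest Myod1 over Myf6 at 4 Hz was 48.9 and the highest Myf5 over Myf6 at 10 Hz 10.9. Myod1 over Pax7 reached 241 in a control library, and its lowest value at 1 Hz was 58.3. Myog over Pax7 reached 2747 in the control, 1112 at 4 Hz and 3241 at 10 Hz. Myf5 over Pax7 reached 136 in the control. Myf6 over Pax7 reached 90.6 in the control, 8.43 at 1 Hz and 52.1 at 10 Hz.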

How the results depend on the processing

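The number of tested members called at 1 Hz against control (2) was 1 with a mean of at least 5 CPM and with limma on log2(TPM + 1) or log2(TPM + 0.1), and at 10 Hz against control (1) it was 2 with no filter, with at least 5 CPM, with DESeq2 and with DESeq2 and apeglm, and 0 with either limma fit and with only the 12 libraries compared. The filter of at least 5 CPM leaves out Pax7 and Myf6, and the limma fits, with a mean of at least 1 TPM, leave out Pax7. For 10 Hz against 1 Hz (2) it was 0 with that filter and 1 with either limma fit, and for 10 Hz against 4 Hz (4) it was 2 in each of these. With the small RNA covariate it was 0 in all comparisons that had calls except 10 Hz against control. Without each library in turn it ran from 1 to 3 at 1 Hz, 3 to 4 at 4 Hz and 0 to 2 at 10 Hz against control, from 1 to 3 for 10 Hz against 1 Hz and from 1 to 4 for 10 Hz against 4 Hz. Apart from the genes left out, the cause of these changes was not tested. All 60 ratio comparisons were recounted with CPM, TPM + 0.1, the replicate block and leaving out each library, and 10 pairs with TPM + 0.1, the small RNA slope removed and leaving out each library, while single ones were followed only where they had passed, with Pax7 over Myod1 against control and Myog with Pax7 added. Leaving out 1 library gave 4 to 7 ratios at 1 Hz, 6 to 7 at 4 Hz, 1 to 3 for 4 Hz against 1 Hz, 5 to 7 for 10 Hz against 1 Hz, 6 to 7 for 10 Hz against 4 Hz, and 1 to 3 pairs.

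The replicate numbers were not treated as pairs, since 10 of 36 same-numbered pairs correlated over 0.1 (lowest r -0.18). As 10 of 24 libraries correlated best with their own number, these values do not decide whether some libraries are paired. With the number as a replicate block, members called at 10 Hz against control became 2, with Myod1 at 0.73 (adjusted p = 0.00226), Myf6 at 1 Hz was called (-0.84, adjusted p = 0.0431), and 0 ratios passed in the 5 comparisons that had any, since 6 pairs allow no p below 0.03125 by sign flips (exact permutation, lowest adjusted p 0.0670). Counts of the gene lists stayed within 1.5 times under the block.

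Directions reversed with the small RNA covariate for Myf5 at 1 Hz against control (0.27), Myod1 and Myf5 at 10 Hz against 1 Hz (0.20 and -0.023) and Myog at 10 Hz against 4 Hz (0.13), none of them called, and for the log2 ratios of Pax7 to Myod1 at 4 Hz (0.21) and Myf5 to Myog at 1 Hz (0.33) against control, where the covariate was added after seeing the data. Pax7 ran from -0.13 to 0.35 at 10 Hz against control and from -0.12 to 0.18 for 4 Hz against 1 Hz without single libraries. The log2 ratio of Pax7 to Myod1 at 1 Hz against control was -0.11 from CPM, -0.19 from TPM + 0.1 and -0.28 to 0.33 without single libraries, and at 4 Hz -0.56 to 0.058. With the small RNA covariate 0 partners were called at 1, 4 and 10 Hz, 0 targets at 1 Hz and 10 at 4 Hz, 0 progenitor markers at 1 Hz and 2 at 4 Hz, and 0 cell cycle markers at 1 and 4 Hz. Over all genes that fit called 1, 221 and 204 at 1, 4 and 10 Hz. In the added lists 0 targets were called at 10 Hz against 1 Hz (10) and against 4 Hz (17), and 2 progenitor markers at 10 Hz against 1 Hz (15). Of all genes 178 were called there against 1 Hz and 0 against 4 Hz. The cell cycle count at 1 Hz was 7 with total count scaling. Without single libraries the counts at 10 Hz were 0 to 2 partners, 2 to 9 targets and 1 to 3 progenitor markers, and those of cell cycle markers 2 to 5 at 1 Hz and 3 to 7 at 4 Hz. Depth limits the values of Pax7, Myf6 and Pax3 most.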
